A study of Mus musculus with 8 samples.

Results

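Immunoglobulin gene segments were followed in RNA sequencing of splenic regulatory T cells (Tregs) from mice that bore no tumor. They were chosen as the rows of the deposited table whose gene biotype begins with IG_, pseudogenes included, with at least 1 FPKM (fragments per kilobase of transcript, corrected for library size) in at least 2 of the 8 libraries. The rule found 214 segments among 432 immunoglobulin rows and 55487 rows in all. They comprise 104 heavy-chain segments on chromosome 12 (7 constant, 2 diversity, 4 joining and 91 variable), 101 kappa segments on chromosome 6 (1 constant, 4 joining and 96 variable) and 9 lambda segments on chromosome 16 (3 constant, 3 joining and 3 variable). Just inside the rule stood Ighv1-62-1, with 1.03 FPKM in its second highest library, and just outside it Igkv4-54, with 0.996 FPKM.

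Each library was made from total RNA with a SMART-Seq v4 low-input kit, and the 4 groups had 2 libraries each. KO YFP+ (mice 84 and 85) and KO YFP- (the same mice) were YFP-sorted Tregs with an SRC-3 knockout genotype on a mixed C57BL/6 and 129SvEv background. WT YFP+ (mice 23 and 24) were YFP-sorted Tregs labelled WT Control, of the C57BL/6 strain, and SRC-3ff (mice 68 and 72) were Tregs labelled WT Control 2, of the 129SvEv strain, with no YFP sort in their cell type label. What YFP reports is not in the labels. Genotype and strain change together between the knockout and either control, so they cannot be told apart, and SRC-3ff was also sorted unlike the YFP+ groups. Summed over all rows, FPKM were 384107 to 416393 a library, and the sequencing depth is unknown. Cd3e and Trac were high in every library, at 216 to 459 FPKM and 704 to 1292 FPKM, while the Treg factor Foxp3 measured 21.02 and 22.9 FPKM in KO YFP+, against 161 and 113 FPKM in KO YFP-, and 31.0 and 19.9 FPKM in WT YFP+, against 205 and 151 FPKM in SRC-3ff.

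Antibodies are made by B cells and, in bulk, by plasma cells, their secreting descendants. A heavy chain is encoded by a variable, a diversity and a joining segment joined in the DNA of each B cell and spliced to a constant region, and a light chain, kappa or lambda, by a variable and a joining segment and its own constant region. Class switching replaces the mu constant region (IgM) by a gamma (IgG), epsilon (IgE) or alpha (IgA) one, so constant genes bear on isotypes. Variable segments bear on which germline segments were used. They do not count rearrangements, since many can share a segment. Conventional T cells rearrange T cell receptor genes and do not make antibodies.

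The segments whose values recur below are shown first, as GENCODE gives their transcripts on GRCm38, 5′ to 3′. In the 2 diversity segments that passed the rule nothing is capitalised; Ighd4-1 (chr12:113430528-113430538, minus strand) lies 694 bases from Ighj1 (chr12:113429781-113429833, minus strand), and Ighd1-1 stands at chr12:113482170-113482192, minus strand. In the joining segments the capitals mark the codons of the conserved Trp/Phe-Gly-X-Gly motif, found by translation. Ighj2 is not shown, because its annotated transcript of 54 bases holds no such motif, and whether its FPKM can be read like those of the other joining segments was not tested.
Ighd1-1: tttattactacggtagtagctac
Ighd4-1: ctaactgggac
Ighj1: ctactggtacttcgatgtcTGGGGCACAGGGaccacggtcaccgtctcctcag
Ighj3: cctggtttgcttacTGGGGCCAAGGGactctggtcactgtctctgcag
Ighj4: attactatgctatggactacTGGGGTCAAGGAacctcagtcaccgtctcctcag
Igkj1: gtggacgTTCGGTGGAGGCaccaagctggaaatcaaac
Igkj2: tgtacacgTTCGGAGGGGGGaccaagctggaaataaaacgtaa
Iglj1: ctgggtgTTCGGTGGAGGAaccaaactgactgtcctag
The variable segments below led at least 1 library, and their last 60 bases are shown because that end, from the conserved Tyr-Tyr/Phe-Cys codons in capitals onwards, starts the complementarity-determining region that spans the joint. Ighv1-81 is at chr12:115920279-115920712 (minus strand), Igkv1-110 at chr6:68270485-68271267 (plus), Igkv1-117 at chr6:68121046-68121827 (plus), Igkv6-15 at chr6:70406469-70406992 (minus), Igkv9-120 at chr6:68049983-68050456 (plus) and Iglv1 at chr16:19085017-19085500 (minus).
Ighv1-81: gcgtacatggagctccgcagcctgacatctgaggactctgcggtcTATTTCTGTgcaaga
Igkv1-110: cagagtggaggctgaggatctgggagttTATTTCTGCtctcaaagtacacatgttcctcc
Igkv1-117: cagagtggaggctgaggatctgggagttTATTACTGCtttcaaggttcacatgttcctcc
Igkv6-15: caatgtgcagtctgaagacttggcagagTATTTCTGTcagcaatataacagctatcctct
Igkv9-120: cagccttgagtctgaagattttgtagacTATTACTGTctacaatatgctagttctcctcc
Iglv1: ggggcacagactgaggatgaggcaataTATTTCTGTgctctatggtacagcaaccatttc
Near-identical copies limit what a single segment's value means, because reads can be split among them. Igkv1-110 and Igkv1-117 were 97.5% identical over their aligned bases, and Iglv1 and Iglv2 96.7% identical. Ighv1-81 was less exposed: its nearest segment, Ighv1-85, was 92.9% identical. Of the 41 variable segments named by the rule for this text, 21 had a segment at least 95% identical on the same chromosome. The assembly is that of C57BL/6J, so reads from 129SvEv alleles were assigned to C57BL/6J segments; the effect of this on single segments was not tested.

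Immunoglobulin RNA was present in all 8 Treg libraries, and both YFP+ groups held far less of it than KO YFP- and SRC-3ff. The 214 segments summed to 1515 and 1724 FPKM in KO YFP+ 84 and 85, against 19084 and 9703 FPKM in KO YFP- 84 and 85. They summed to 733 and 2590 FPKM in WT YFP+ 23 and 24, against 9864 and 29762 FPKM in SRC-3ff 68 and 72. The 4 YFP+ libraries therefore lay below the other 4 without overlap, while libraries of 1 group differed up to several-fold. As a share of all FPKM these sums were 0.381% and 0.414% in KO YFP+, 4.70% and 2.46% in KO YFP-, 0.191% and 0.637% in WT YFP+, and 2.55% and 7.31% in SRC-3ff. The KO YFP+ mean was 1620 ± 148 FPKM and the WT YFP+ mean 1662 ± 1313 FPKM (SD, n = 2 each), a difference well inside the spread between the WT YFP+ libraries. In bulk RNA, fewer cells that hold immunoglobulin RNA and less of it per cell cannot be told apart. Which cells held this RNA was not tested.

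**Figure D1:**
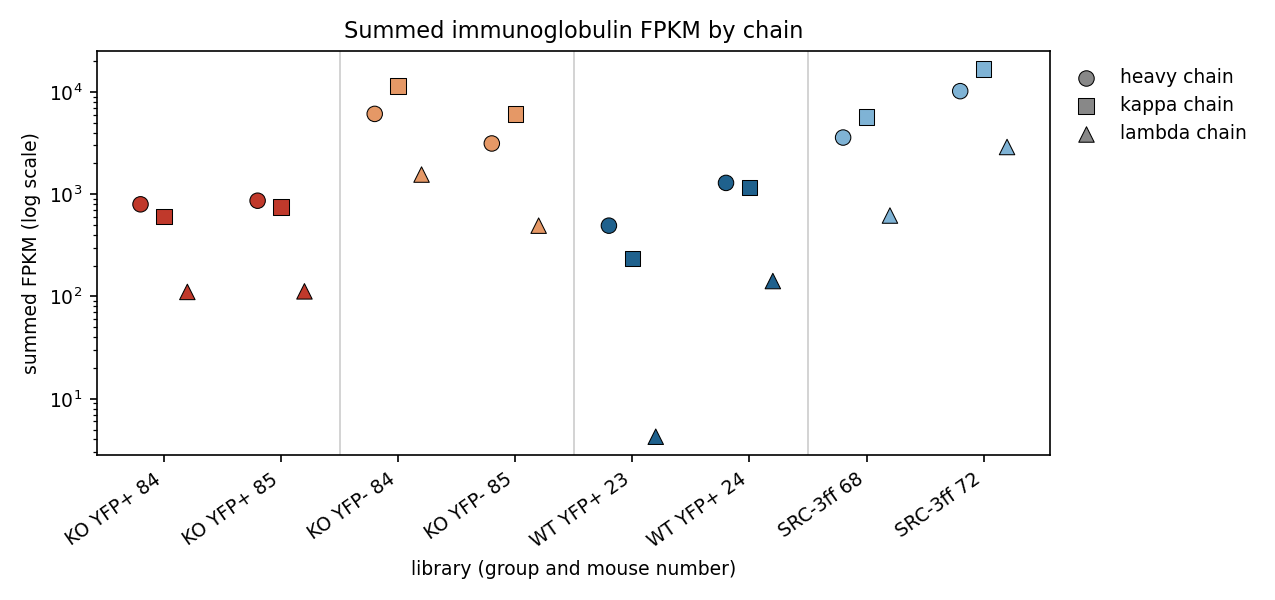
Summed FPKM of the heavy (circles), kappa (squares) and lambda (triangles) segments in each library, on a log scale, coloured by group. All 3 chains are lower in the 4 YFP+ libraries, and kappa exceeds heavy only in the KO YFP- and SRC-3ff libraries.

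Within mouse 84, the sum in YFP+ cells was 7.94% of that in YFP- cells, and 213 of the 214 segments were lower in YFP+ cells. Within mouse 85, it was 17.8%, and 209 segments were lower and 3 higher in YFP+ cells. The sums of both mice thus gave the same direction with unlike sizes. The median log2 difference of the segments was -3.26 in mouse 84 and -2.21 in mouse 85, and that of all genes tested -0.03 and -0.02. Of the 214, 100 reached 1 FPKM in no YFP+ library, so they passed the rule only through groups in which they are higher. The share of all genes lower in YFP+ cells of each mouse was not taken. The counts of lower segments therefore describe them and do not support a difference.

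The balance of chains also differed. Heavy-chain segments took 52.5% and 50.1% of the immunoglobulin FPKM in KO YFP+ and 67.2% and 49.8% in WT YFP+. In KO YFP- they took 31.9% and 32.3%, and in SRC-3ff 36.3% and 34.2%. Kappa segments held 40.1% and 43.4% in KO YFP+, 59.9% and 62.6% in KO YFP-, 32.2% and 44.8% in WT YFP+, and 57.4% and 56.1% in SRC-3ff. Kappa therefore led in the KO YFP- and SRC-3ff libraries and heavy in the 4 YFP+ libraries. Lambda stayed a minor light chain throughout, as is usual in mice: Iglc1, Iglc2 and Iglc3 together made 2.43% (WT YFP+ 23) to 12.6% (SRC-3ff 72) of light-chain constant FPKM.

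Of the constant genes, the mu gene Ighm, which encodes IgM heavy chains, was the highest heavy-chain constant gene in every library. Ighm measured 436 and 443 FPKM in KO YFP+, 1572 and 980 FPKM in KO YFP-, 353 and 502 FPKM in WT YFP+, and 837 and 2495 FPKM in SRC-3ff. The 4 YFP+ values lay close together and below the other 4. The log2 difference of KO YFP+ from KO YFP- was -1.50 ± 0.49 (SE; limma adjusted p = 0.153) and that of WT YFP+ from SRC-3ff was -1.78 ± 0.49 (limma adjusted p = 0.0685), so neither passed the threshold of 0.05. All tests here are on log2(FPKM + 1), a scale that understates the change of low genes.

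Igkc, the only kappa constant gene, measured 262 and 338 FPKM in KO YFP+, 4704 and 2556 FPKM in KO YFP-, 99.0 and 469 FPKM in WT YFP+, and 2393 and 6977 FPKM in SRC-3ff. It was the highest of all 214 segments in every KO YFP- and SRC-3ff library, and Ighm was above it in the 4 YFP+ libraries. In KO YFP+ against KO YFP-, Igkc did not pass (log2 difference -3.54 ± 0.78 SE, limma adjusted p = 0.0525). In WT YFP+ against SRC-3ff it fell (-4.24 ± 0.78, limma adjusted p = 0.0201), though not without WT YFP+ 23 or without SRC-3ff 72. The ratio of Ighm to Igkc was 1.66 and 1.31 in KO YFP+ and 3.57 and 1.07 in WT YFP+, against values of 0.334 and 0.384 for KO YFP- and of 0.350 and 0.358 for SRC-3ff. These ratios do not overlap between YFP+ and other libraries.

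Ratios of constant to variable RNA were also taken within each chain. Igkc stood at 1.05 to 1.36 times the summed kappa variable FPKM in all 8 libraries. Ighm stood at 3.06 and 3.36 times the summed heavy-chain variable FPKM in KO YFP+ and at 8.77 and 1.55 times in WT YFP+. Against these, the ratio was 0.750 and 1.04 for KO YFP- and 0.648 and 0.641 for SRC-3ff. The kappa ratio varied little over the libraries, whereas the heavy-chain ratio was higher in every YFP+ library than in any other. These ratios were not tested, since with 2 libraries in each group the smallest two-sided p of an exact permutation test is 0.333.

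**Figure D2:**
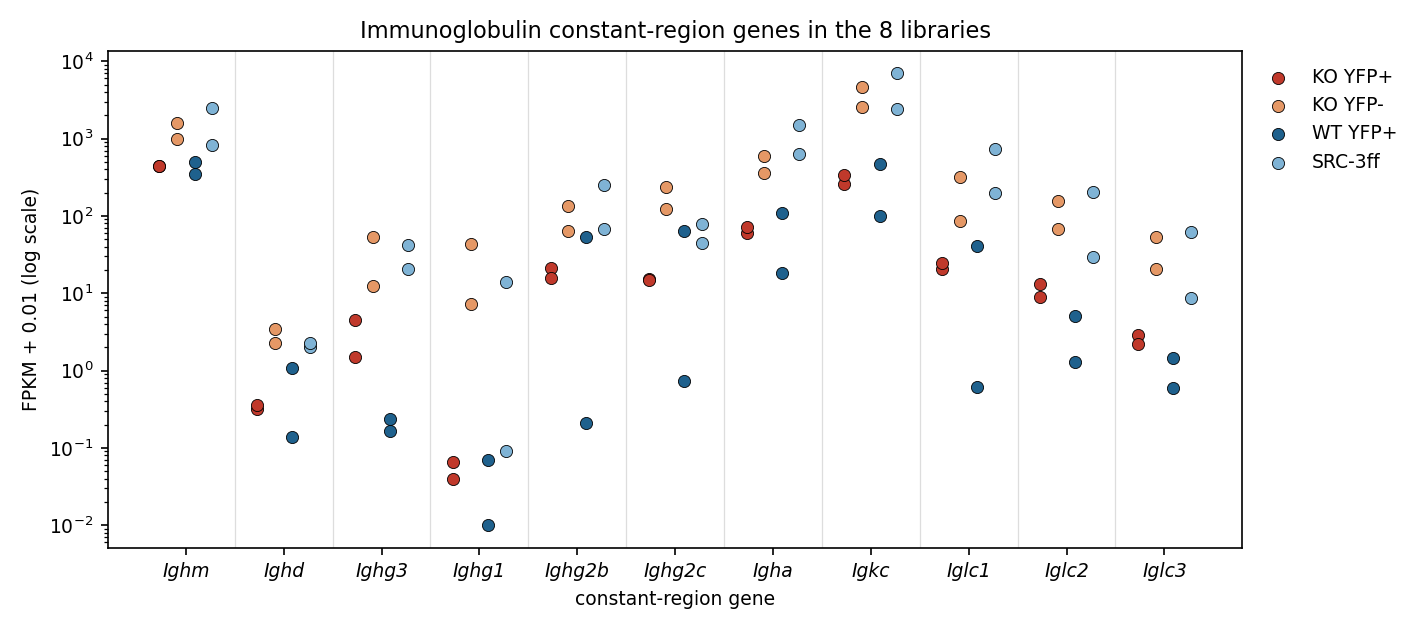
FPKM + 0.01 of the 11 constant-region genes that passed the rule, on a log scale, with 1 point a library coloured by group. Ighm varies least between groups, and Ighg1 is near 0 in 5 libraries.

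Isotypes after class switching followed. Igha, the IgA heavy chain of mucosal antibodies, was second among heavy constants in every library, with 59.5 and 71.5 FPKM in KO YFP+, 602 and 355 FPKM in KO YFP-, 18.5 and 109 FPKM in WT YFP+, and 637 and 1496 FPKM in SRC-3ff. It fell in WT YFP+ against SRC-3ff (log2 difference -4.40 ± 0.78 SE, limma adjusted p = 0.0182, lost without SRC-3ff 72) and did not pass in KO YFP+ against KO YFP- (-2.81 ± 0.78, limma adjusted p = 0.102). Igha made 11.1% and 13.1% of heavy constant FPKM in KO YFP+, 22.8% and 23.0% in KO YFP-, 4.95% and 15.0% in WT YFP+, and 39.1% and 34.3% in SRC-3ff. The SRC-3ff libraries had the highest IgA shares of the 8.

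The gamma genes encode IgG subclasses. Ighg2b had 21.1 and 15.7 FPKM in KO YFP+, 135 and 64.1 FPKM in KO YFP-, 0.198 and 53.3 FPKM in WT YFP+, and 68.6 and 250 FPKM in SRC-3ff. Ighg2c had 15.3 and 14.7 FPKM in KO YFP+, 238 and 123 FPKM in KO YFP-, 0.726 and 63.5 FPKM in WT YFP+, and 44.1 and 78.8 FPKM in SRC-3ff. For both, the 2 WT YFP+ libraries lay farther apart in fold than any other pair, WT YFP+ 23 being near 0. Neither passed in KO YFP+ against KO YFP- (limma adjusted p = 0.518 for Ighg2b and 0.265 for Ighg2c), and Ighg2c overlapped between WT YFP+ and SRC-3ff. The strain of SRC-3ff is not that of the assembly, and the knockout background is mixed. Whether Ighg2c values can be compared between groups of different strain was not tested.

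Ighg3 had 4.50 and 1.501 FPKM in KO YFP+, 52.6 and 12.2 FPKM in KO YFP-, 0.156 and 0.226 FPKM in WT YFP+, and 41.8 and 20.8 FPKM in SRC-3ff. It was near 0 in both WT YFP+ libraries and fell there against SRC-3ff (log2 difference -4.68 ± 0.69 SE, limma adjusted p = 0.0093), except without WT YFP+ 24. In KO YFP+ against KO YFP- its limma adjusted p was 0.0678, and 0.0162 with the mouse number as a replicate block. Ighg1 reached 43.2 and 7.28 FPKM in KO YFP- and 14.1 FPKM in SRC-3ff 72, against 0.0802 FPKM in SRC-3ff 68. In the YFP+ libraries it was at 0.0293 and 0.0555 FPKM in KO YFP+, and was listed at 0 and at 0.0589 FPKM in WT YFP+. All gamma genes together made 7.62% and 5.84% of heavy constant FPKM in KO YFP+, 17.7% and 13.4% in KO YFP-, 0.290% and 16.1% in WT YFP+, and 9.49% and 8.35% in SRC-3ff. Whether these shares can be compared between groups of different strain was likewise not tested.

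Ighd, the IgD gene carried by mature naive B cells together with IgM, was low everywhere. It had 0.306 and 0.349 FPKM in KO YFP+, 3.48 and 2.24 FPKM in KO YFP-, 0.129 and 1.08 FPKM in WT YFP+, and 1.99 and 2.26 FPKM in SRC-3ff. It made at most 0.148% of heavy constant FPKM in any library. In KO YFP+ against KO YFP- it fell by 1.52 on the log2 scale (± 0.32 SE, limma adjusted p = 0.0442), a call kept in 2 of the 8 fits that left out 1 library, those without a WT YFP+ library, and not with the replicate block (limma adjusted p = 0.0679). The IgE gene did not pass the rule.

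The lambda constants were also lower in the YFP+ groups. Iglc1 had 20.8 and 24.6 FPKM in KO YFP+, 322 and 85.9 FPKM in KO YFP-, 0.597 and 40.7 FPKM in WT YFP+, and 196 and 735 FPKM in SRC-3ff. Iglc2 had 13.04 and 8.87 FPKM in KO YFP+, 156 and 67.7 FPKM in KO YFP-, 1.29 and 5.12 FPKM in WT YFP+, and 29.7 and 204 FPKM in SRC-3ff. Iglc3 had 2.90 and 2.21 FPKM in KO YFP+, 53.6 and 20.8 FPKM in KO YFP-, 0.583 and 1.45 FPKM in WT YFP+, and 8.68 and 62.4 FPKM in SRC-3ff. Iglc2 and Iglc3 are 95.3% identical, so their split is uncertain. In WT YFP+ against SRC-3ff Iglc2 fell (limma adjusted p = 0.0294), as did Iglc3 (limma adjusted p = 0.0418), and the calls were kept in 3 of 8 fits that left out 1 library for Iglc2 (without KO YFP- 84, KO YFP- 85 or SRC-3ff 68) and in 1 of 8 for Iglc3 (without SRC-3ff 68). With the replicate block Iglc3 did not pass (limma adjusted p = 0.0531). Iglc1 did not pass (limma adjusted p = 0.0613).

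Joining segments passed the rule in all 3 loci, and their annotated transcripts taken here hold 38 to 54 bases each. By the mean over the 8 libraries the highest heavy-chain ones were Ighj2 and Ighj4, although Ighj1 led in KO YFP+ 84, KO YFP- 85 and WT YFP+ 23. Ighj1 had 49.7 and 42.4 FPKM in KO YFP+, 381 and 197 FPKM in KO YFP-, 30.9 and 60.3 FPKM in WT YFP+, and 150 and 381 FPKM in SRC-3ff. Ighj2 had 15.4 and 89.5 FPKM in KO YFP+, 255 and 123 FPKM in KO YFP-, 22.8 and 100 FPKM in WT YFP+, and 189 and 567 FPKM in SRC-3ff. Ighj4 had 38.8 and 9.96 FPKM in KO YFP+, 439 and 153 FPKM in KO YFP-, 12.4 and 54.3 FPKM in WT YFP+, and 173 and 547 FPKM in SRC-3ff. In the KO YFP+ pair the order of the last 2 by FPKM was turned round. Ighj4 made 34.2% of heavy joining FPKM in mouse 84 and 5.49% in mouse 85, Ighj2 13.6% and 49.3%. In the same mice's YFP- cells Ighj4 made 33.5% and 24.7% and Ighj2 19.4% and 19.8%. The annotated Ighj2 transcript lacks the conserved motif, so these shares are not read as use of that segment.

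Igkj1 had the highest mean of the kappa joining segments, with 82.8 and 52.7 FPKM in KO YFP+, 1061 and 407 FPKM in KO YFP-, 24.5 and 104 FPKM in WT YFP+, and 289 and 1085 FPKM in SRC-3ff. Igkj2 was next by mean, with 27.1 and 46.5 FPKM in KO YFP+, 633 and 340 FPKM in KO YFP-, 6.96 and 45.2 FPKM in WT YFP+, and 488 and 828 FPKM in SRC-3ff. Igkj2 exceeded Igkj1 in SRC-3ff 68, was the lowest of the 4 in both WT YFP+ libraries and was below Igkj4 in SRC-3ff 72. All 4 kappa joining segments were above 0 in all 8 libraries. Iglj1, the joining segment of the Iglc1 cluster, was listed at 0 in WT YFP+ 23 and measured 45.2 FPKM in WT YFP+ 24.

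Of 19 functional diversity genes in the table, 2 passed the rule. Ighd1-1 had 0 (listed) and 0.120 FPKM in KO YFP+, 16.5 and 8.10 FPKM in KO YFP-, 0 (listed) and 2.31 FPKM in WT YFP+, and 9.86 and 43.3 FPKM in SRC-3ff. Ighd4-1, whose 11 bases are printed above, had 3.73 and 3.59 FPKM in KO YFP+, 26.3 and 16.8 FPKM in KO YFP-, 4.81 and 3.66 FPKM in WT YFP+, and 7.96 and 8.88 FPKM in SRC-3ff. Its KO YFP+, WT YFP+ and SRC-3ff pairs lay close together, and it fell in KO YFP+ against KO YFP- (log2 difference -2.24 ± 0.22 SE, limma adjusted p = 0.0047, in all 8 fits that left out 1 library). Values of segments this short depend on how fragments longer than the segment are counted, which is not given in the sources used here.

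Set over all 214 segments, the mean of the 4 YFP+ libraries was a median 2.89% of the mean of the other 4, with quartiles of 0.577% and 8.35%. Ighm, at 29.5%, and Ighd4-1, at 26.3%, ranked 10 and 12 from the top in this percentage, a comparison chosen after their values were seen. Igkc was at 7.02% and the 3 lambda constants at 4.91% to 6.47%. Variable segments had a median of 2.31% (190 segments), and 21 segments were listed at 0 in all 4 YFP+ libraries. Since 100 of the 214 segments passed the rule only through the other 4 libraries, low percentages are partly set by the rule. The order of classes was not tested. The 4 segments whose highest library was a YFP+ one, Ighv5-4, Igkv14-130, Igkv2-112 and Igkv6-32, all had it in WT YFP+ 24, and were named after their values were seen.

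**Figure D3:**
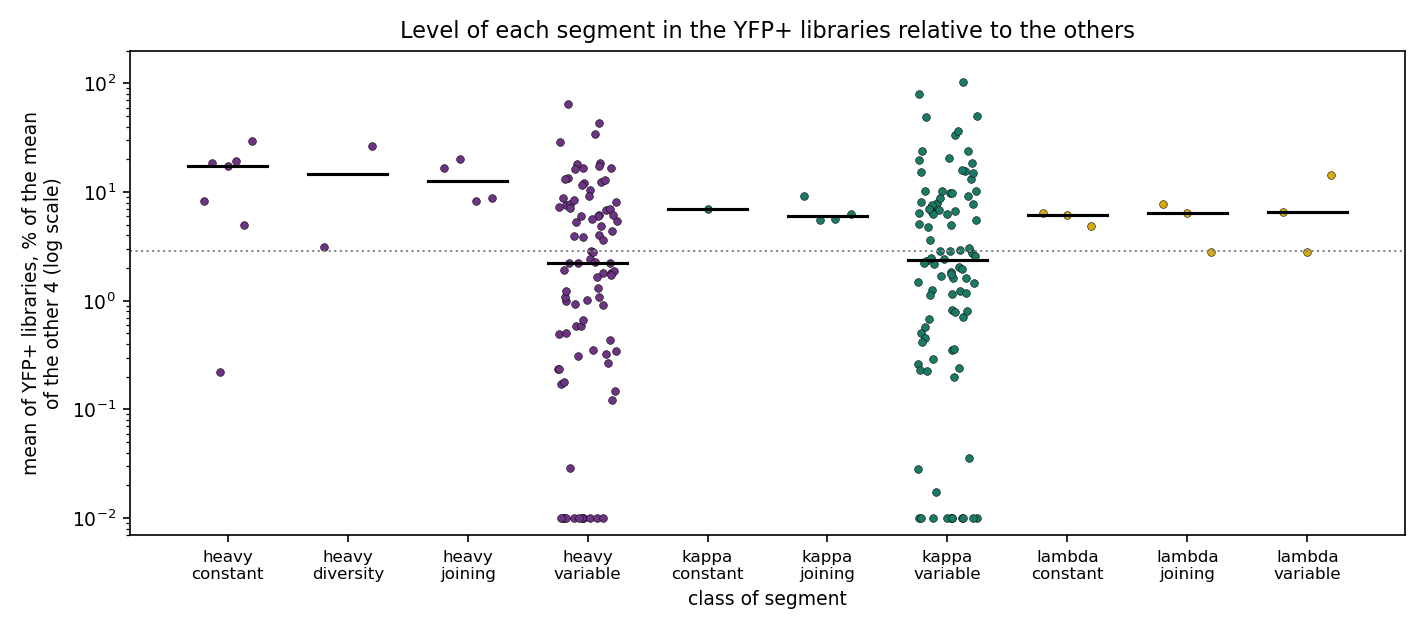
Mean FPKM of the 4 YFP+ libraries as a percentage of the mean of the other 4 for each segment, on a log scale, by class. Of the 214 segments, 100 passed the rule only through the other 4 libraries, which favours low percentages. Black bars are class medians, the dotted line is the median of all 214 segments (2.89%), and segments at 0% are drawn at 0.01; heavy-chain constant, diversity and joining segments have the highest class medians.

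Variable segments showed how evenly the FPKM of each library was spread over germline segments, each of which many rearrangements can share. Ighv1-81 was the highest heavy-chain variable segment in 8 of 8 libraries. It had 31.0 and 34.4 FPKM in KO YFP+, 221 and 93.8 FPKM in KO YFP-, 15.8 and 161 FPKM in WT YFP+, and 469 and 1097 FPKM in SRC-3ff. As a share of heavy-chain variable FPKM this was 21.8% and 26.1% in KO YFP+, 10.5% and 9.94% in KO YFP-, 39.2% and 49.9% in WT YFP+, and 36.3% and 28.2% in SRC-3ff. This segment's share was lowest in KO YFP- and highest in WT YFP+. Its 60-base end above, with its Tyr-Phe-Cys codons, is the germline sequence; which alleles or rearrangements the libraries held was not analysed here.

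The next segments differed between libraries. Ighv5-6 was among the top 3 in both KO YFP+ and both SRC-3ff libraries. In WT YFP+ 23, Ighv6-6 reached 14.4 FPKM and 35.7% of heavy-chain variable FPKM, against 0 (listed) in WT YFP+ 24. In WT YFP+ 24, Ighv1-9 reached 68.0 FPKM and 21.02%, followed by Ighv5-4 at 24.5 FPKM. The mice of the WT YFP+ group therefore shared their leading segment and not the next ones. Ighv1-53 was in the top 3 of KO YFP+ 84 and KO YFP- 84, the same mouse.

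The effective number of segments, the inverse of the summed squared shares, condenses this: it equals the number of segments if all are equal and 1 if a single segment takes all. For heavy-chain variable segments it was 12.2 and 9.94 in KO YFP+, 30.7 and 30.8 in KO YFP-, 3.46 and 3.25 in WT YFP+, and 6.76 and 9.93 in SRC-3ff. For kappa variable segments it was 12.8 and 16.7 in KO YFP+, 28.4 and 26.5 in KO YFP-, 4.84 and 7.50 in WT YFP+, and 14.9 and 15.1 in SRC-3ff. Both chains put KO YFP- highest and WT YFP+ lowest, without overlap with any other group. KO YFP+ and SRC-3ff were neighbours in this order: their kappa values overlapped, and their heavy-chain values met, at 9.94 in KO YFP+ 85 and 9.93 in SRC-3ff 72.

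**Figure D4:**
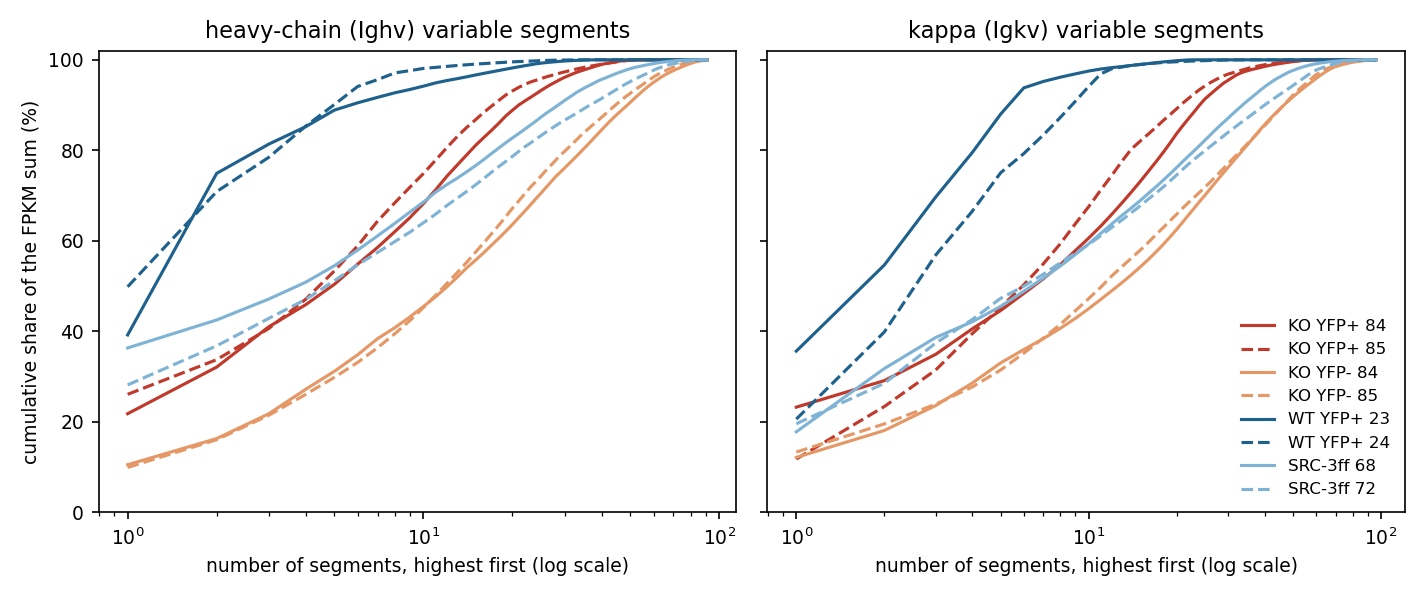
Cumulative percentage of summed heavy-chain (left) and kappa (right) variable FPKM against the number of segments, taken from the highest down; colours are groups, solid lines the first mouse of a group and dashed lines the second. The WT YFP+ curves climb fastest, with 88.9% and 90.1% of heavy-chain variable FPKM in 5 segments, and the KO YFP- curves slowest, with 31.2% and 29.8%.

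Among kappa variable segments Igkv1-110 was in the top 3 of 7 libraries. Igkv1-110 had 49.0 and 28.9 FPKM in KO YFP+, 511 and 301 FPKM in KO YFP-, 1.21 and 92.0 FPKM in WT YFP+, and 293 and 551 FPKM in SRC-3ff. Its 97.5% identical copy Igkv1-117 had 11.9 and 20.04 FPKM in KO YFP+, 209 and 86.1 FPKM in KO YFP-, 16.3 and 76.0 FPKM in WT YFP+, and 374 and 1210 FPKM in SRC-3ff. Igkv1-110 led in both KO YFP- libraries and Igkv1-117 in both SRC-3ff libraries. Igkv1-117 fell in KO YFP+ against SRC-3ff (log2 difference -5.36 ± 0.84 SE, limma adjusted p = 0.0146), and no difference in Igkv1-110 passed in any of the 6 comparisons.

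The leaders of single libraries were often near 0 in their partner. Igkv6-15 led KO YFP+ 85 with 29.5 FPKM and was listed at 0 in KO YFP+ 84. Igkv9-120 led WT YFP+ 23 with 30.5 FPKM, or 35.6% of its kappa variable FPKM, and was listed at 0 in WT YFP+ 24. In WT YFP+ 24, Igkv8-21 reached 85.9 FPKM, against 0.0185 FPKM in WT YFP+ 23. Outside the YFP+ groups these segments were present in all 4 libraries, Igkv9-120 at 41.3 and 24.1 FPKM in KO YFP- and at 53.3 and 83.4 FPKM in SRC-3ff. The lambda leader was Iglv1 in all 8 libraries, at 52.2% (KO YFP+ 84) to 96.1% (WT YFP+ 24) of lambda variable FPKM.

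The number of segments seen differed widely. At 1 FPKM or more stood 25 and 21 of the 91 heavy-chain variable segments in KO YFP+, 90 and 75 in KO YFP-, 5 and 10 in WT YFP+, and 62 and 84 in SRC-3ff. Of the 96 kappa variable segments, 32 and 29 did so in KO YFP+, 94 and 80 in KO YFP-, 7 and 14 in WT YFP+, and 67 and 86 in SRC-3ff. Summed heavy-chain variable FPKM was 142 and 132 in KO YFP+, 2096 and 944 in KO YFP-, 40.3 and 324 in WT YFP+, and 1292 and 3892 in SRC-3ff. Neither the number seen nor the effective number ran in parallel with the total: WT YFP+ 24 had a higher total than both KO YFP+ libraries and fewer segments at 1 FPKM, and SRC-3ff 72 had the highest total and an effective number below those of KO YFP-. How far low input RNA or low totals set these numbers was not tested.

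The likeness of libraries in variable-segment use was described by Pearson's r of log2(FPKM + 1) across segments, which share germline usage and mapping in all libraries. Over the 91 heavy-chain segments r was 0.645 between KO YFP+ 84 and KO YFP- 84, and 0.627 between KO YFP+ 85 and KO YFP- 85. It was 0.571 within KO YFP+, 0.807 within KO YFP-, 0.315 within WT YFP+ and 0.696 within SRC-3ff. Over the 96 kappa segments r was 0.530 and 0.635 within mice 84 and 85, and 0.379, 0.781, 0.222 and 0.656 within KO YFP+, KO YFP-, WT YFP+ and SRC-3ff. Pairs that share neither mouse nor group spanned 0.270 to 0.766 for heavy-chain and 0.0751 to 0.693 for kappa segments. The same-mouse values lay inside these ranges. In both chains, though, each KO YFP+ library was most like the KO YFP- library of its own mouse. For KO YFP+ 84 the next highest r were 0.577 (heavy-chain, with SRC-3ff 72) and 0.379 (kappa, with KO YFP+ 85). For KO YFP+ 85 they were 0.626 (heavy-chain, with SRC-3ff 72) and 0.516 (kappa, with KO YFP- 84). What sets this likeness was not tested. The WT YFP+ pair was the least alike of the 4 groups in both chains. Pseudogenes added little: 9 of the 214 segments are pseudogenes, the highest being Ighv1-83, with at most 10.1 FPKM, and Ighv1-62, with at most 5.51 FPKM, both in SRC-3ff 72.

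For tests over single segments, 1 linear model was fitted to all 8 libraries and 14134 genes with limma, and p-values were adjusted over all of them (Benjamini-Hochberg, threshold 0.05). In KO YFP+ against KO YFP-, 63 of the 214 segments fell and none rose, beside 3.46% of all genes tested that fell. The median log2 difference of the segments was -2.85, and that of all genes -0.02. In 204 segments both KO YFP+ libraries lay below both KO YFP- libraries, which held for 27.0% of all genes. Leaving out KO YFP- 84 gave 28 such segments, leaving out KO YFP+ 84 gave 21 and leaving out KO YFP+ 85 gave 20, and 15 segments were called in all 8 such fits. Of the 214, 100 reached 1 FPKM in no YFP+ library, so they passed the rule only through groups in which they are higher, and these counts describe the segments and do not support a difference.

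By role, the 63 were Ighd, Ighd4-1, Ighj1, 27 of 91 heavy-chain variable segments, 2 of 4 kappa joining and 31 of 96 kappa variable segments, and no lambda segment. Ighj1 (limma adjusted p = 0.0406) and Igkj2 (0.0478) did not pass with the replicate block, at 0.0535 and 0.0772. Igkv1-135, Igkv6-14, Igkv12-44, Igkv6-23 and Igkv3-1, named next, reached 1 FPKM in no YFP+ library. They entered the tests only through groups in which they are higher, so their calls describe them and do not support a difference. Igkv1-135 fell furthest, with 0.368 and 0.627 FPKM in KO YFP+ and 187 and 98.6 FPKM in KO YFP- (log2 difference -6.52 ± 0.54 SE, limma adjusted p = 0.0035). Igkv6-14 was listed at 0 and had 0.668 FPKM in KO YFP+, against 68.9 and 34.4 FPKM in KO YFP- (limma adjusted p = 0.0038). Igkv12-44 had 0.198 and 0.0757 FPKM in KO YFP+, against 90.7 and 22.7 FPKM in KO YFP- (-5.36 ± 0.55, limma adjusted p = 0.0050). All 3 are kappa variable segments near 0 in both KO YFP+ libraries, and all 3 calls held in each of the 8 fits that left out 1 library. Igkv6-23 and Igkv3-1 also fell (log2 differences -5.71 and -5.25), in 6 of those 8 fits each, the exceptions being KO YFP+ 84 and KO YFP+ 85 left out.

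**Figure D5:**
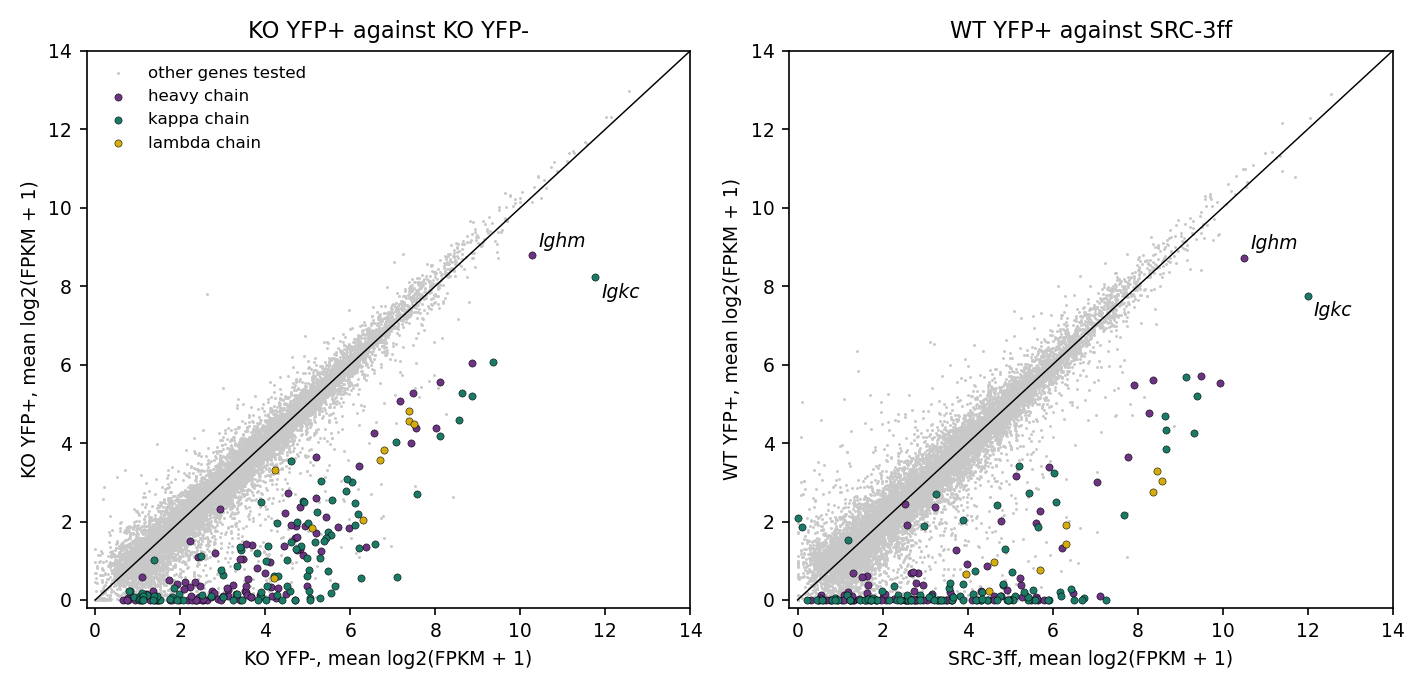
Mean log2(FPKM + 1) of each gene in KO YFP+ against KO YFP- (left) and in WT YFP+ against SRC-3ff (right); grey points are other genes tested, coloured points heavy, kappa and lambda segments, and the line marks equality. Most segments lie below the line in both panels, with Ighm and Igkc labelled.

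WT YFP+ against SRC-3ff, which shares no library with the comparison above, gave 90 segments that fell and none that rose, beside 5.49% of all genes tested that fell. The median log2 difference was -2.92. In 188 segments both WT YFP+ libraries lay below both SRC-3ff libraries, as in 31.2% of all genes. The count was 47 without SRC-3ff 72, 47 without WT YFP+ 23 (46 that fell and 1 that rose) and 54 without WT YFP+ 24. Of the 90, 49 were also among the 63 of KO YFP+ against KO YFP-, which is 77.8% of the 63 and 54.4% of the 90. Over all genes tested, 331 fell in both, which is 67.7% of 489 and 42.7% of 776; both comparisons come from 1 model with a shared error estimate per gene. Across all 8 libraries, every YFP+ value lay below every other value in 158 segments, and in 10.9% of all genes. Here too, 100 of the 214 segments passed the rule only through groups in which they are higher. The counts of this paragraph therefore describe the segments and do not support a difference.

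Of the segments named next, Igkv6-14 and Igkv1-135 reached 1 FPKM in no YFP+ library, so their calls do not support a difference. Ighv5-6 had 0 (listed) and 0.167 FPKM in WT YFP+, against 79.8 and 236 FPKM in SRC-3ff (log2 difference -7.00 ± 0.49 SE, limma adjusted p = 0.00073). Igkv6-14 had 0 (listed) and 0.0829 FPKM in WT YFP+, against 72.8 and 155 FPKM in SRC-3ff (-6.69 ± 0.45, limma adjusted p = 0.0007). Igkv1-135 was listed at 0 in both WT YFP+ libraries, against 48.4 and 165 FPKM in SRC-3ff (limma adjusted p = 0.0014). These 3 calls held in all 8 fits that left out 1 library. Igkv4-57 and Igkv9-124 were likewise listed at 0 in both WT YFP+ libraries; SRC-3ff had 70.4 and 321 FPKM of the first (limma adjusted p = 0.0093, lost without WT YFP+ 24 or SRC-3ff 72) and 18.3 and 551 FPKM of the second (limma adjusted p = 0.0422, kept only without SRC-3ff 68).

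KO YFP+ against WT YFP+ compares the YFP+ sorts of knockout and control. Here 2 of the 214 segments rose and none fell. That is 0.935% of the segments, near the 0.757% of all genes called in either direction. With an unadjusted limma p under 0.05 there were 16. The share of all genes under that p was not taken, so the 16 are not read as a difference. The median log2 difference was 0.13, and was 0.06 without KO YFP+ 84 or KO YFP+ 85, 0.30 without WT YFP+ 24 and 0.73 with a pseudocount of 0.1. Ighv5-6 had 14.7 and 9.06 FPKM in KO YFP+, against 0 (listed) and 0.167 FPKM in WT YFP+ (log2 difference 3.54 ± 0.49 SE, limma adjusted p = 0.0314). Igkv12-46 had 5.84 and 9.42 FPKM in KO YFP+, against 0.159 FPKM and 0 (listed) in WT YFP+ (2.97 ± 0.39, limma adjusted p = 0.0240). Each call was kept in 2 of 8 fits that left out 1 library, for Ighv5-6 those without an SRC-3ff library and for Igkv12-46 those without a KO YFP- library. Without WT YFP+ 24, 1 rose and 1 fell. The count was 0 without WT YFP+ 23, 5 without SRC-3ff 68, 4 without SRC-3ff 72 and 1 when KO YFP+ 85, or either KO YFP- library, was left out. With the replicate block it was 5. No constant gene was called: Ighm differed by 0.06 ± 0.49 (limma adjusted p = 0.987) and Igkc by 0.46 ± 0.78 (limma adjusted p = 0.886) on the log2 scale.

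KO YFP- against SRC-3ff gave 5 segments that rose and 1 that fell, beside 0.644% of all genes called in either direction. The median log2 difference was 0.09, and its sign rested on single libraries: it was -0.79 without SRC-3ff 68, -0.42 without KO YFP- 84, 0.88 without SRC-3ff 72 and 0.55 without KO YFP- 85. Igkv4-80 had 37.3 and 22.8 FPKM in KO YFP-, against 0.00347 and 0.868 FPKM in SRC-3ff (log2 difference 4.46 ± 0.40 SE, limma adjusted p = 0.0180). Igkv2-109 had 44.9 and 42.4 FPKM in KO YFP-, against 0.888 and 5.74 FPKM in SRC-3ff (3.65 ± 0.54, limma adjusted p = 0.0455). Ighv1-22 had 12.7 and 8.69 FPKM in KO YFP-, against 44.8 and 54.4 FPKM in SRC-3ff (-2.13 ± 0.24, limma adjusted p = 0.0265). Igkv4-70, Ighv12-3 and Igkv4-90 also rose, by 2.72, 2.31 and 1.54 on the log2 scale, the last of them named after its values were seen. Igkv4-90 was kept in no fit that left out 1 library, the other 4 that rose were kept only without SRC-3ff 72 and Ighv1-22 only without KO YFP- 84, and with the replicate block Igkv2-109, Igkv4-70 and Igkv4-90 did not pass (limma adjusted p of 0.0709, 0.0529 and 0.0565). Over the segments the count was 2 without KO YFP- 84, 11 without SRC-3ff 72 and 0 without each of the other 6. Constant genes were not called (limma adjusted p = 0.844 for Ighm, 0.501 for Igha).

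Both remaining comparisons cross YFP sort with genotype and strain and share libraries with those above. Each sets a YFP+ group against 1 of the other groups, and 100 of the 214 segments passed the rule only through those other groups. The segment counts of both comparisons therefore describe the segments and do not support a difference. KO YFP- against WT YFP+ gave 106 segments that rose and none that fell, beside 5.90% of all genes tested that rose; the count was 54 without KO YFP- 84, 47 without WT YFP+ 23 and 62 without WT YFP+ 24. KO YFP+ against SRC-3ff gave 1 that rose, Igkv4-80, named after its values were seen (6.56 and 3.26 FPKM in KO YFP+, against 0.00347 and 0.868 FPKM in SRC-3ff), and 83 that fell, beside 10.2% of all genes called in either direction; the total of 84 became 25 without SRC-3ff 72, and 24 or 21 when KO YFP+ 84 or KO YFP+ 85 was left out. Among the constants, Igha (log2 difference -3.88 ± 0.78 SE), Igkc (-3.77 ± 0.78) and Ighg3 (-3.04 ± 0.69) fell in KO YFP+ against SRC-3ff, with limma adjusted p of 0.0290, 0.0309 and 0.0382. These calls were lost without KO YFP+ 84, KO YFP+ 85 or SRC-3ff 72, and that of Ighg3 also without SRC-3ff 68 or either WT YFP+ library. Ighv1-81 fell there too (-4.41 ± 0.998, limma adjusted p = 0.0383), in 2 of 8 fits that left out 1 library and not with the replicate block (limma adjusted p = 0.0553). In KO YFP- against WT YFP+, Ighg3 rose by 4.48 on the log2 scale (limma adjusted p = 0.0104), a call lost without either WT YFP+ library.

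Other RNAs of antibody-making cells were followed as gene lists. Among 18 genes of plasma cells and antibody secretion, 5 fell in KO YFP+ against KO YFP-, 7 in WT YFP+ against SRC-3ff, and none was called in KO YFP+ against WT YFP+. Of all genes tested, 3.46% fell in KO YFP+ against KO YFP-, 5.49% fell in WT YFP+ against SRC-3ff, and 0.757% were called in KO YFP+ against WT YFP+. Jchain, which links IgM and IgA into polymers, had 22.4 and 29.3 FPKM in KO YFP+, 375 and 247 FPKM in KO YFP-, 9.42 and 44.6 FPKM in WT YFP+, and 266 and 790 FPKM in SRC-3ff. It fell in KO YFP+ against KO YFP- (log2 difference -3.52 ± 0.74 SE, limma adjusted p = 0.0450). Hspa5, the chaperone of unassembled heavy chains, was high in all libraries, at 201 to 323 FPKM. The plasma cell marker Sdc1, named after its values were seen, was at 0.0474 and 0.458 FPKM in KO YFP+, 10.7 and 13.7 FPKM in KO YFP-, 0.0257 and 0.0873 FPKM in WT YFP+, and 15.9 and 29.0 FPKM in SRC-3ff.

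Of 20 genes of B cell identity, 11 passed the filter, of which 4 fell in KO YFP+ against KO YFP- and 4 in WT YFP+ against SRC-3ff. In these comparisons 3.46% and 5.49% of all genes tested fell. The summed FPKM of the 20 genes was 105 and 94.0 in KO YFP+, 319 and 243 in KO YFP-, 73.2 and 82.1 in WT YFP+, and 373 and 609 in SRC-3ff. A large part of each sum was Cd74, the invariant chain of antigen presentation. Cd74 had 58.1 and 47.8 FPKM in KO YFP+, 185 and 117 FPKM in KO YFP-, 31.1 and 39.3 FPKM in WT YFP+, and 221 and 359 FPKM in SRC-3ff. Among defining B cell markers, Ms4a1 reached at most 1.72 FPKM, in SRC-3ff 72, and Pax5 at most 0.00765 FPKM, in KO YFP- 85. The recombinase genes Rag1 and Rag2 did not exceed 0.144 FPKM, and none of the 12 tested genes of V(D)J recombination and class switching was called in KO YFP+ against KO YFP-.

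Markers of other cells differed too. Of 9 natural killer cell genes tested, 7 fell in KO YFP+ against KO YFP- and 5 in WT YFP+ against SRC-3ff, beside 3.46% and 5.49% of all genes tested. Their list summed to 66.4 and 48.9 FPKM in KO YFP+, 262 and 433 FPKM in KO YFP-, 42.9 and 35.3 FPKM in WT YFP+, and 133 and 194 FPKM in SRC-3ff. Natural killer genes were higher in KO YFP- 85 than in KO YFP- 84, and immunoglobulin sums lower. All 10 T cell and Treg genes were tested, and 1 rose and 1, Foxp3, fell in KO YFP+ against KO YFP-. In that comparison 1 of 4 germinal centre genes, 1 of 2 surrogate light chain and pro-B cell genes and 1 of 5 genes of immunoglobulin receptors and transport fell, and neither of 2 myeloid genes was called. Over all genes tested, 1.44% rose and 3.46% fell there, and a count of 1 gene does not describe a cell type. The part of other cells, of free RNA and of the sort in the immunoglobulin values was not tested.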

How the data were processed

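The authors deposited 1 table of FPKM per gene for the 8 libraries; the submitters' processing notes name Trim Galore, STAR and StringTie and the mm10 build, while tool versions, annotation and strandedness stay not given in the sources used here. Such values hold no read depth, so no counting intervals are given. The segments and gene lists were chosen with earlier results of these data known. Genes with at least 1 FPKM in 2 libraries (14134 of 55487) entered 1 limma 3.58.1 model (R 4.3.3) of log2(FPKM + 1) with 4 groups, 8 libraries and 4 residual degrees of freedom, giving 6 comparisons with Benjamini-Hochberg adjusted p-values and a threshold of 0.05. The step was tested on simulated data. Tables and plots used Python 3.11.15, pandas 2.3.3 and matplotlib 3.10.9.

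Libraries were grouped by their labels, which give a mouse number; nothing else states how the animals were kept or processed, so p-values measure the spread between these libraries. KO YFP+ and KO YFP- come from the same mice, 84 and 85, and their deviations from the group means had r = 0.137 over 14134 genes and 0.341 over the 214 segments; the model without the replicate block is the one reported. Coordinates and sequences came from GENCODE M21 on GRCm38 by gene ID, and all 214 segments matched. Identity was taken from global alignments with free end gaps over at least 200 bases.

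Named segments were every constant gene, the 3 highest heavy-chain, 3 highest kappa and the highest lambda variable segment of each library, the 2 highest joining, diversity and pseudogene segments of each kind, up to 5 segments a direction and comparison with the largest called differences (mean of at least 5 FPKM in a group, no overlap), and up to 4 genes of each of the 9 lists by mean FPKM. The alternatives were another pseudocount (0.1), no filter or a minimum of 5 FPKM, other scalings, quantile normalization, only the 4 libraries compared, the replicate block and each library left out.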

Additional observations from a re-analysis of the deposited data

How the results depend on the processing

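Without the filter on low values, more genes were tested and fewer segments called: 0 in KO YFP+ against WT YFP+, 12 in KO YFP+ against KO YFP-, 15 in KO YFP+ against SRC-3ff, 3 in KO YFP- against SRC-3ff, 33 in KO YFP- against WT YFP+ and 33 in WT YFP+ against SRC-3ff. Over all 30300 genes then tested, 68, 226, 567, 129, 687 and 717 were called, in the same order of comparisons. The main fit called 107, 693, 1448, 91, 1310 and 1303 of 14134 genes. With a pseudocount of 0.1, 7 segments were called in KO YFP+ against WT YFP+ and 0 in KO YFP- against SRC-3ff, beside 115 and 44 of all genes. For the other changes in this paragraph the cause was not tested. KO YFP- against SRC-3ff gave 2 with a minimum of 5 FPKM and 0 from only the 4 libraries compared. The replicate block, which pairs KO YFP+ and KO YFP- by mouse, gave 5 in KO YFP+ against WT YFP+, in place of 2, kept the other 5 counts within 1.5 times, and changed the single calls for which the report gives its value, ending all of them but that of Ighg3 in KO YFP+ against KO YFP-, which it added. Leaving out 1 library gave 0 to 5 in KO YFP+ against WT YFP+, 20 to 94 in KO YFP+ against KO YFP-, 21 to 110 in KO YFP+ against SRC-3ff, 0 to 11 in KO YFP- against SRC-3ff, 47 to 130 in KO YFP- against WT YFP+ and 47 to 130 in WT YFP+ against SRC-3ff. These ranges are not set beside counts over all genes, so they are not read as particular to the segments. Without the highest segment of each library the KO YFP+ sum was 1180 FPKM. The effective number of heavy-chain variable segments was 31.6 and 31.3 in KO YFP- 84 and 85 over every immunoglobulin gene and 30.5 and 30.6 without pseudogenes. Of 669 alternative values for 42 pairs of a named segment and a comparison, 198 left-out-library values and 269 others stayed past the threshold, 138 and 64 did not, and none changed sign. With 2 libraries a group, unknown depth and near-identical segments, single segments are the least certain values.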
